A study of Mus musculus with 74 samples.

Results

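The genes described here mark oligodendrocyte precursors and their differentiation: Pdgfra, Olig1, Olig2, Sox10, Gpr17, Bmp4, Enpp6, Myrf, Bcas1 and Nkx2-2. They were chosen by gene symbol, and all 10 were found among the 49912 genes of the count table. The animals were Trem2 -/-, +/- and +/+ mice that ate chow with 0.2% cuprizone, a copper chelator that kills oligodendrocytes, or a control chow, for 12 or 5 weeks. Trem2 encodes a receptor by which microglia sense lipids and debris. Whole brains of PBS-perfused mice were dissociated, and viable cells were sorted into Cd11b-positive cells (the microglia fraction) and all other cells (the nonmicroglia fraction), each of which gave 1 library of 3' tags per animal. At 12 weeks there were 3 Trem2 -/-, 4 Trem2 +/- and 3 Trem2 +/+ animals on cuprizone, and 3, 4 and 2 on control chow in the same order. At 5 weeks each of these genotypes had 3 animals on cuprizone and 3 on control chow. Each group had 1 male and otherwise females, and the labels used here give no age. The nonmicroglia fraction is a mixture of cell types, so that fewer cells of a type and less RNA per cell cannot be told apart.

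Oligodendrocyte precursors divide in the adult brain and carry the receptor Pdgfra, through which platelet-derived growth factor keeps them dividing. The transcription factors Olig1, Olig2, Sox10 and Nkx2-2 specify the lineage, and Olig1, Olig2 and Sox10 remain on in mature oligodendrocytes. As precursors stop dividing they pass a stage marked by the receptor Gpr17, then by Bcas1 and by the choline phosphodiesterase Enpp6, and Myrf switches on the myelin genes. Bmp4 encodes a secreted ligand that holds back oligodendrocyte differentiation and is also made by committed precursors. When cuprizone strips myelin from axons, precursors multiply and some form new oligodendrocytes, so these genes are read as signs of remyelination.

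RefSeq promoter windows of 300 bases on GRCm38.p6, from 250 before to 50 after the start, were matched for Pdgfra, Enpp6, Bmp4, Olig2 and Nkx2-2. Those of Pdgfra, the receptor of precursors, and Enpp6, a marker of newly formed oligodendrocytes, are shown because they mark an early and a later stage of the lineage. Capitals mark CANNTG, the E-box to which basic helix-loop-helix factors such as Olig1 and Olig2 bind; letters are 5′ to 3′ on the gene's strand, at chr5:75152001-75152300 (plus) and chr8:46986637-46986936 (plus).
Pdgfra: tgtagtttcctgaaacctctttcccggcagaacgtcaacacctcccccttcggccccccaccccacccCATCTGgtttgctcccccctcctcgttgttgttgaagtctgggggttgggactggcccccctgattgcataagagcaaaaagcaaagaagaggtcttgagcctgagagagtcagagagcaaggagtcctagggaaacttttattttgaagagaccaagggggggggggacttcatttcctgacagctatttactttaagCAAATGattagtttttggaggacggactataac
Enpp6: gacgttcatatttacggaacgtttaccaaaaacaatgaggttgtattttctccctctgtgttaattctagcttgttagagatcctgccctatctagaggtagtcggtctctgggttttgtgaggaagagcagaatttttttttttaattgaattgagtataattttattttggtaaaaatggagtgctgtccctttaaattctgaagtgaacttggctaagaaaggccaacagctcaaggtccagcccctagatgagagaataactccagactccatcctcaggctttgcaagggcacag
The Pdgfra window held 2 E-boxes and the Enpp6 window held 0, while Bmp4 and Nkx2-2 held 3 each and Olig2 held 0. Searched on both strands, CANNTG occurred in 72.3% of 32851 RefSeq promoter windows. The letters ACAANG, a core that SOX factors such as Sox10 bind, occurred once each in the Pdgfra, Enpp6 and Olig2 windows and in 41.25% of all windows. Olig2 was also the member with TATAAA, present in 13.6% of all windows.

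In the GENCODE M21 annotation of GRCm38.p6, Pdgfra lies on the plus strand of chromosome 5 from 75152292 to 75198215 and Enpp6 on the plus strand of chromosome 8 from 46986887 to 47096762. Olig2 (91225457 to 91228677) and Olig1 (91269772 to 91271933) are neighbours on the plus strand of chromosome 16. Sox10 is on chromosome 15 (79154908 to 79165240), Gpr17 on chromosome 18 (31942997 to 31949636), Bmp4 on chromosome 14 (46383520 to 46390669) and Myrf on chromosome 19 (10208272 to 10240748), all on the minus strand. Bcas1 (170346991 to 170427845) and Nkx2-2 (147177546 to 147194243) lie on the minus strand of chromosome 2. Genes on the opposite strand overlap Gpr17 (Lims2, with 1206 counts over the nonmicroglia libraries), Bmp4 (Gm15222, 194 counts), Nkx2-2 (6430503K07Rik, 543 counts, and Nkx2-2os, 237 counts) and Bcas1 (Bcas1os1 and Bcas1os2, 9 and 28 counts). The use of strand in the authors' counting is not given in the sources used here, so reads of these pairs may be shared.

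The 74 libraries held 1043961 to 3945694 counts, and nonmicroglia libraries held 1255465 to 3441041, so that 1 count was worth 0.291 to 0.797 CPM (counts scaled to a common library size). Trem2 itself read 98.8 to 256 CPM in the microglia fraction of Trem2 -/- animals, 302 to 1051 CPM in Trem2 +/- and 404 to 1037 CPM in Trem2 +/+ animals. Trem2 -/- libraries lay below all others, but tags near the 3' end need not lie in the altered part of the gene, whose position is not given in the sources used here. On the first principal component of the nonmicroglia fraction, which took 6.93% of the variance, 13 of 37 libraries lay beyond 30, and the values of members and called list genes that turn on them are given without them too. One control library, of the Trem2 +/+ male 1932 at 12 weeks, had the highest summed level of 18 mature oligodendrocyte markers of the control libraries at 12 weeks (57355 CPM, against 21001 to 48894 CPM in the other 8). It also had the highest control levels of Olig1, Olig2, Sox10 and Enpp6, and values without it are given where it moves them.

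All 10 genes had more tags in the nonmicroglia than in the microglia fraction of the 5 Trem2 +/+ animals on control chow, and 8 of the 10 passed the test at an adjusted p under 0.05 (edgeR quasi-likelihood test, Benjamini-Hochberg over 12391 genes). Of all genes tested, 35.6% passed. The fit had no term for the animal, and results with one are given in the closing section. Olig1 read 713, 285, 262, 312 and 394 CPM in the nonmicroglia fraction and 5.51, 24.5, 8.31, 3.30 and 8.56 CPM in the microglia fraction of animals 1932, 9145, 1930, 309 and 5512. Sox10 read 505, 95.3, 52.9, 100.3 and 104 CPM in the nonmicroglia fraction and 0.788, 4.08, 0, 0 and 1.83 CPM in the microglia fraction of the same animals. The fractions did not overlap for either gene, as for 27.5% of all genes tested. The log2 fold change, nonmicroglia over microglia, was 5.32 ± 0.43 (SE) for Olig1 with an adjusted p of 3.0e-11, and 6.89 ± 0.63 for Sox10 with an adjusted p of 4.15e-10. Olig2 (5.46), Enpp6 (5.49), Myrf (5.06), Bcas1 (4.83), Nkx2-2 (6.39) and Pdgfra (5.34) also passed, with adjusted p-values from 5.63e-09 to 0.00925. Gpr17 (3.11 ± 1.46, adjusted p 0.101) and Bmp4 (3.27 ± 1.47, adjusted p 0.085) did not. Gpr17 ranged from 0 to 26.6 CPM in the nonmicroglia and from 0 to 5.1 CPM in the microglia fraction, which overlap. With DESeq2 or limma voom, Gpr17 and Bmp4 passed as well. Pdgfra did not pass when the nonmicroglia library of 5512 (4.09) or of 9145 was left out, and Bmp4 passed without the microglia library of 309 (4.53, adjusted p 0.0401).

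**Figure D1:**
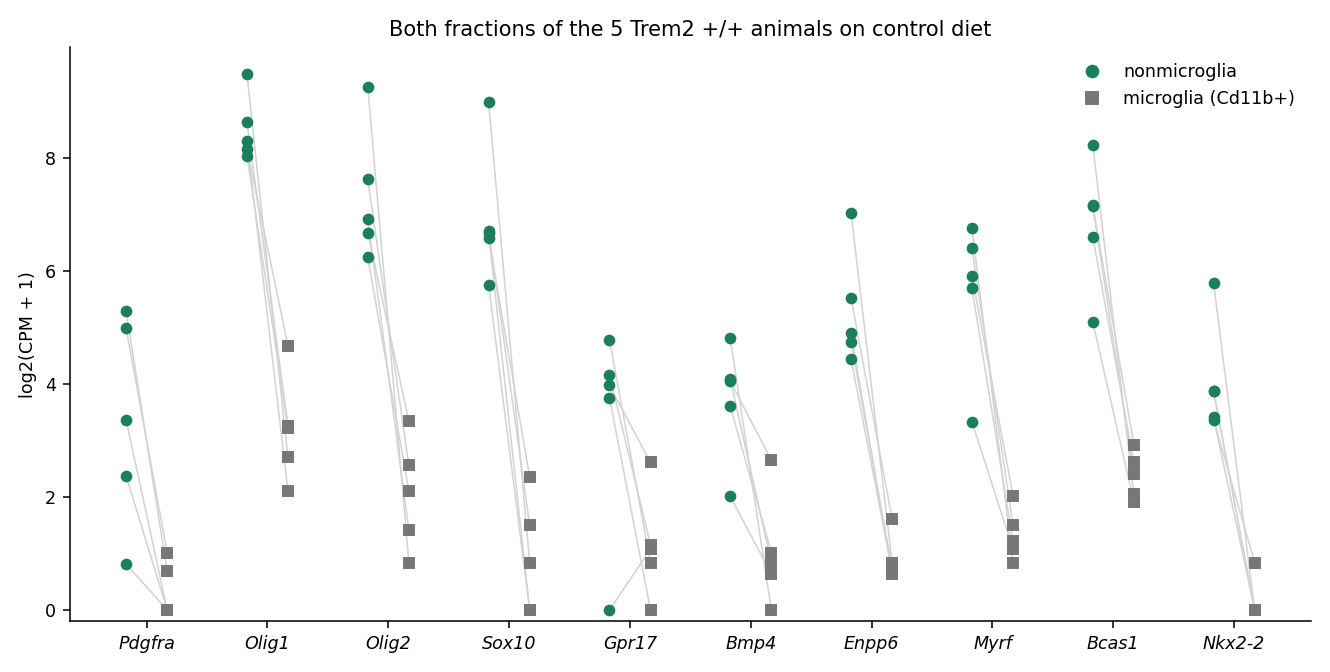
CPM of each gene in the nonmicroglia (left) and microglia (right) libraries of 5 Trem2 +/+ animals on control chow, as log2(CPM + 1); each point is a library and grey lines join the libraries of an animal. The fractions are apart for Olig1 and Sox10, and their ranges overlap for Pdgfra, Gpr17 and Bmp4.

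Across the 37 nonmicroglia libraries, with diets, weeks and genotypes together, the genes varied widely. Olig1, a transcription factor of the whole lineage, had the smallest ratio: its highest library stood 5.08 times above its lowest (957 and 188 CPM). Nkx2-2 spanned 5.83 to 56.7 CPM, Sox10 51.6 to 538 CPM, Bcas1 34.3 to 474 CPM, Olig2 39.5 to 705 CPM, Myrf 9.34 to 188 CPM and Enpp6 2.09 to 137 CPM. Pdgfra, Bmp4 and Gpr17 had libraries with no count. Pdgfra was at 0 in 2 libraries, Bmp4 in 2 and Gpr17 in 1, where 3 counts of the total, the upper limit that a count of 0 allows, would be 1.47 to 2.39 CPM. These limits cover counting error only. All 10 genes passed the filter on low counts in this fraction.

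**Figure D2:**
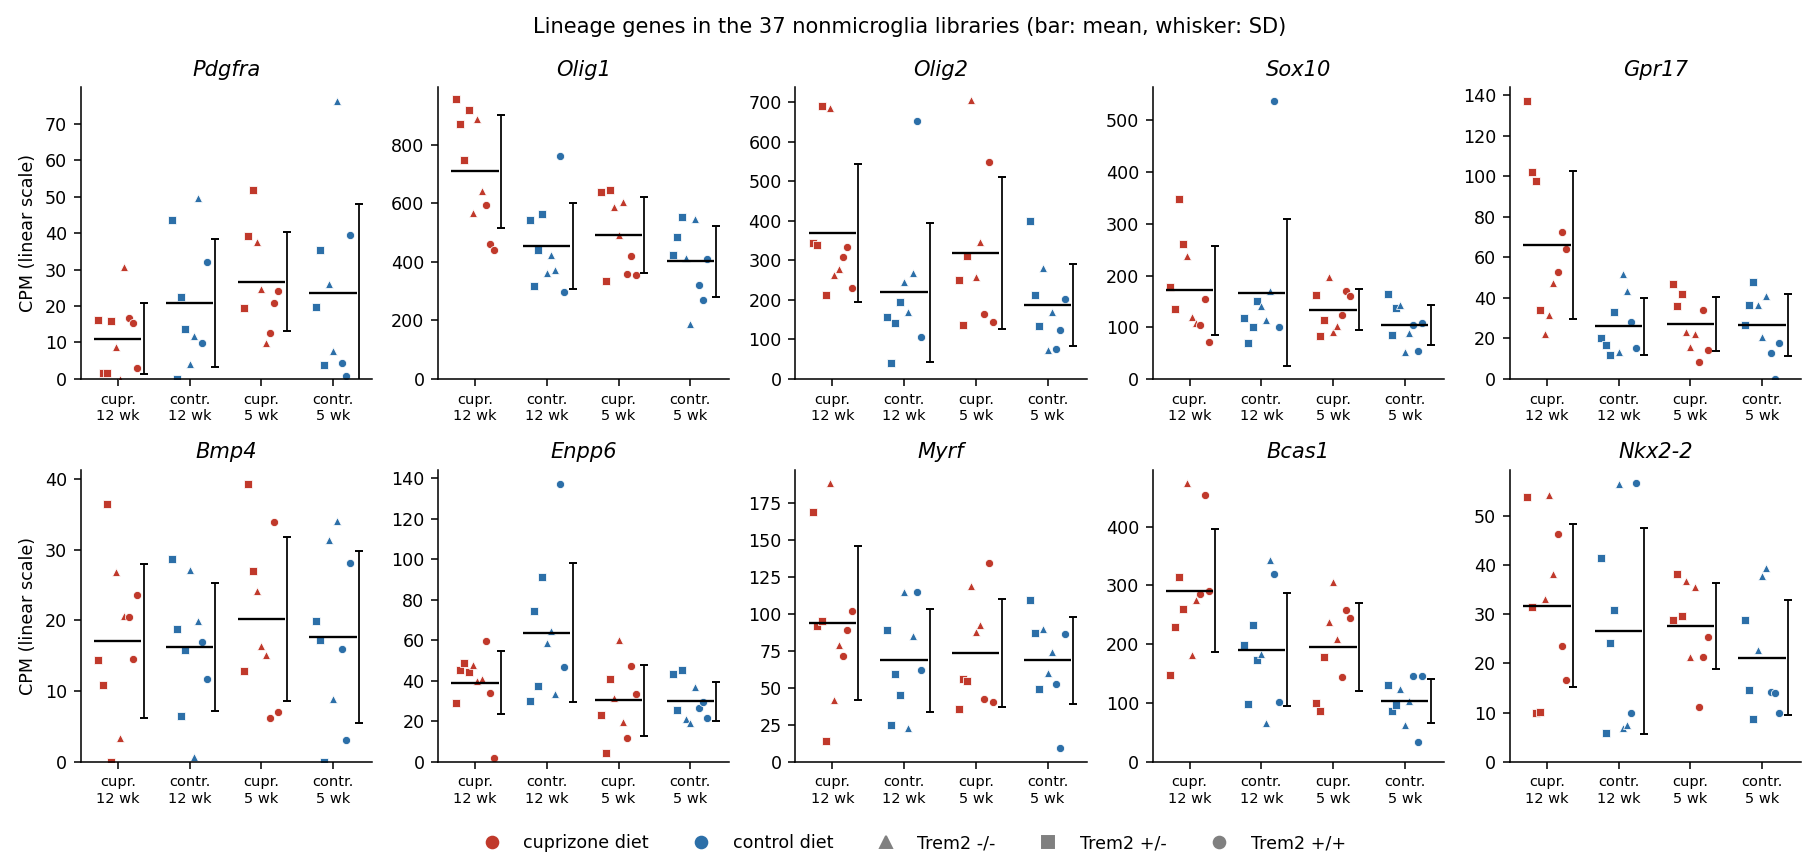
CPM of the 10 genes in every nonmicroglia library, by diet and weeks, on linear axes; points are libraries (colour for diet, shape for genotype), bars are means and whiskers SDs. Olig1 and Gpr17 are high in most cuprizone libraries at 12 weeks, and Pdgfra and Bmp4 reach 0 in single libraries.

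At 5 weeks of cuprizone, the time of acute demyelination, all 10 genes had a positive log2 fold change against control chow, from 0.03 to 0.86, but none passed the test. The median was 0.33, against 0.05 over all 16915 genes tested, and 0.443% of all genes were called. At an unadjusted p under 0.05 the edgeR test had 1 of the 10, Bcas1, and 7.58% of all genes, and neither DESeq2 nor limma voom called any. The 10 genes were read from the same 18 libraries, so their shared sign does not count as 10 separate observations. Bcas1, which marks oligodendrocytes that have begun to myelinate, read 85.9, 209 and 306 CPM (lowest, median, highest; n = 9) on cuprizone and 34.3, 104 and 147 CPM on control chow (n = 9). Of 9 cuprizone libraries, 6 lay above the highest control library, while the rest overlapped. Its mean was 196 ± 74.7 CPM on cuprizone and 104 ± 37.9 CPM on control chow (SD), with a log2 fold change of 0.86 ± 0.29 (SE), p 0.00656 and adjusted p 0.332 (edgeR).

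Olig2 ranged from 137 to 705 CPM (median 259) on cuprizone and from 74.3 to 399 CPM (median 171) on control chow at 5 weeks, and 2 cuprizone libraries lay above all controls. Its log2 fold change was 0.77 ± 0.38 (edgeR adjusted p 0.668). Olig1 ranged from 333 to 645 CPM (median 491) on cuprizone and from 188 to 553 CPM (median 414) on control chow, a log2 fold change of 0.29 ± 0.16 (edgeR adjusted p 0.732). Gpr17, the receptor of committed precursors, was nearly level, with medians of 23.3 CPM on cuprizone and 26.4 CPM on control chow. Medians of Enpp6 were 31.3 CPM on cuprizone and 26.5 CPM on control chow, and those of Pdgfra were 24.2 CPM on cuprizone and 19.6 CPM on control chow. Groups overlapped for every gene. The 95% interval of the difference excluded 0 for Bcas1 and included 0 for the other 9. Without the libraries beyond 30 on the first component, 7 of the 10 fold changes stayed positive and that of Bcas1 was 0.69.

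By 12 weeks of cuprizone, chronic demyelination, Gpr17 and Olig1 had the smallest p-values of the 10. Gpr17 read 22.4, 58.4 and 137 CPM (lowest, median, highest; n = 10) on cuprizone and 11.8, 20.5 and 51.6 CPM on control chow (n = 9). All 10 cuprizone libraries lay above the control median and 6 above the highest control library. Its means were 66.2 ± 36.5 CPM on cuprizone and 26.0 ± 14.1 CPM on control chow (SD), a log2 fold change of 1.24 ± 0.37 with a 95% interval of 0.50 to 1.99. The edgeR p was 0.0014, or 0.16 after adjustment over all genes.

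Olig1 at 12 weeks read 440, 695 and 957 CPM (lowest, median, highest) on cuprizone and 298, 423 and 760 CPM on control chow. All 10 cuprizone libraries were above the control median and 4 above the highest control, which was the library of male 1932. Its means were 708 ± 194 CPM on cuprizone and 453 ± 147 CPM on control chow (SD), a log2 fold change of 0.60 ± 0.17 with a 95% interval of 0.27 to 0.94 (edgeR p 0.000551, adjusted p 0.0937). Without the library of 1932 the fold change was 0.82, with 9145 as the only Trem2 +/+ control left. Without cuprizone library 8043 (Trem2 +/+) the fold change was 0.67 (edgeR adjusted p 0.0487). Without the 13 libraries beyond 30 on the first component it was 0.22. That setting kept 1932, the highest control, as the only Trem2 +/+ control and 8043 as the only Trem2 +/+ cuprizone library. Trem2 -/- animals on cuprizone kept only 9542. Over the settings tried for this comparison the adjusted p of Olig1 ranged from 0.0141 to 1, and that of Gpr17 from 0.0188 to 0.570.

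None of the 10 genes was called at 12 weeks by edgeR, where 0.497% of all genes were, and 4 had an unadjusted p under 0.05 (Olig1, Gpr17, Enpp6 and Bcas1), as had 8.41% of all genes. DESeq2 called Olig1 (adjusted p 0.0462) and Gpr17 (adjusted p 0.0188), and limma voom called none. The median log2 fold change of the 10 was 0.31, against 0.04 over all genes, and 7 were positive. Bcas1 read 147, 280 and 474 CPM on cuprizone and 66.7, 183 and 344 CPM on control chow, a log2 fold change of 0.61 ± 0.29 (edgeR adjusted p 0.584). Olig2 read 213, 321 and 691 CPM on cuprizone and 39.5, 170 and 652 CPM on control chow. All 10 of its cuprizone libraries were above the control median, and its log2 fold change was 0.78 ± 0.39 (edgeR adjusted p 0.615), or 1.28 without 1932.

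With genotypes averaged, Enpp6, Pdgfra and Sox10 had negative fold changes at 12 weeks, and the sign of Sox10 was not shared by all genotypes. Enpp6 read 2.09, 42.5 and 59.6 CPM on cuprizone and 29.8, 58.7 and 137 CPM on control chow, with 9 of 10 cuprizone libraries below the control median. Its log2 fold change was -0.75 ± 0.37 (edgeR adjusted p 0.588). Without 1932, its highest control library, it was -0.44. Without the libraries beyond 30 on the first component it was -2.29. In that setting 1932 (137 CPM) and 8043 (2.09 CPM) were the only Trem2 +/+ libraries left at 12 weeks. Pdgfra had medians of 12.1 CPM on cuprizone and 13.7 CPM on control chow, and the 95% interval of its fold change ran from -2.38 to 0.34. Sox10 had a log2 fold change of -0.11 in the fit, while 7 of 10 cuprizone libraries lay above the control median. Its medians were 144 CPM on cuprizone and 118 CPM on control chow. Within genotypes its fold change was 0.13 in Trem2 -/-, 1.07 in Trem2 +/- and -1.54 in Trem2 +/+ animals. The Trem2 +/+ value was 0.17 without 1932, a fit that left a single Trem2 +/+ control library. Medians of Myrf were 90.4 CPM on cuprizone and 62.2 CPM on control chow, and those of Nkx2-2 were 32.3 CPM on cuprizone and 24.1 CPM on control chow. For Bmp4 they were 17.5 CPM on cuprizone and 17 CPM on control chow. With genotypes averaged, the intervals of these 4 genes included 0.

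**Figure D3:**
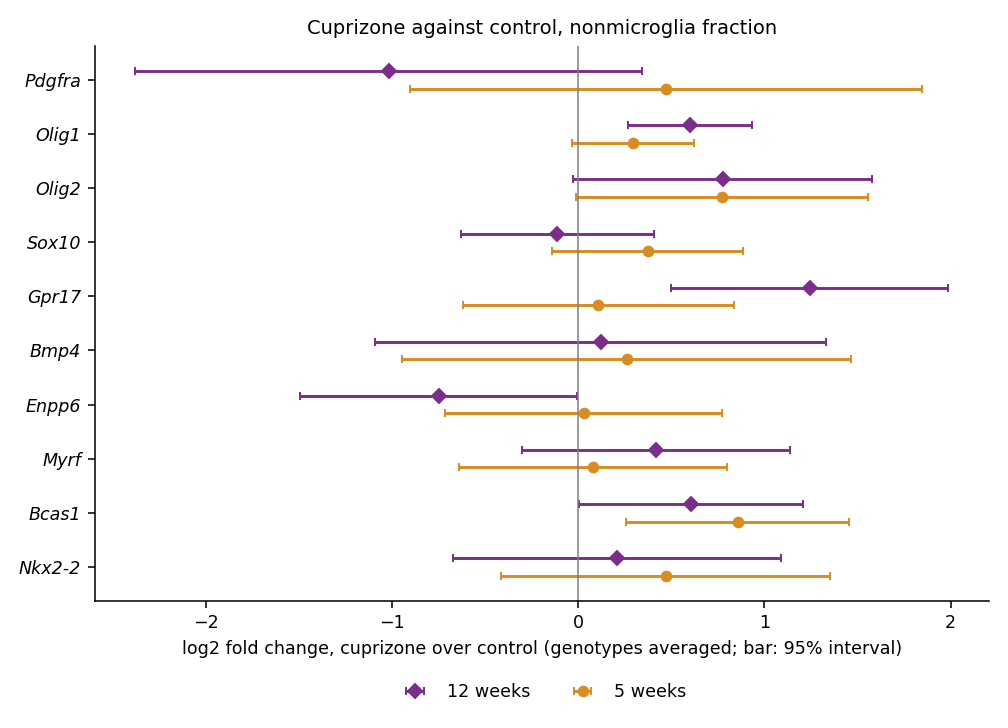
Log2 fold change of cuprizone over control chow, genotypes averaged, for each gene at 5 and 12 weeks; points are edgeR estimates and bars their 95% intervals. The 12-week intervals of Gpr17 (0.50 to 1.99) and Olig1 (0.27 to 0.94) lie above 0.

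The change of the diet difference between the weeks was tested directly. For Gpr17 the difference at 12 weeks exceeded that at 5 weeks by 1.13 ± 0.52 on the log2 scale, with an interval of 0.10 to 2.17, an unadjusted p of 0.0328 and an adjusted p of 1 (edgeR). None of the 10 genes was called, Gpr17 was the member with an unadjusted p under 0.05 (4.23% of all genes), and neither DESeq2 nor limma voom called any. Over all genes 0.00591% were called, which is 1 gene. For Olig1 the interval ran from -0.16 to 0.77 and for Bcas1 from -1.09 to 0.59.

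Between 12 and 5 weeks on cuprizone, Gpr17 had a log2 fold change of 1.22 ± 0.36 (edgeR p 0.00113, adjusted p 0.0808). Gpr17 read 22.4 to 137 CPM (median 58.4) at 12 weeks and 8.34 to 47.1 CPM (median 23.3) at 5 weeks, with 7 of 10 libraries at 12 weeks above the highest at 5 weeks. Olig1 read 440 to 957 CPM at 12 weeks and 333 to 645 CPM at 5 weeks, a log2 fold change of 0.49 ± 0.16 (edgeR adjusted p 0.122), or 0.28 without the libraries beyond 30 on the first component. Bcas1 had a log2 fold change of 0.66 ± 0.29 (edgeR adjusted p 0.356). For Pdgfra, 9 of 10 libraries at 12 weeks lay below the 5-week median and 5 below the lowest 5-week library. Its medians were 12.1 CPM at 12 weeks and 24.2 CPM at 5 weeks, a log2 fold change of -1.31 ± 0.67 (edgeR adjusted p 0.468). None was called by edgeR, where 0.964% of all genes were, and 3 had an unadjusted p under 0.05 (Olig1, Gpr17 and Bcas1), as had 11.1% of all genes. DESeq2 called Gpr17 (adjusted p 0.00955), and limma voom called Gpr17 (0.025) and Olig1 (0.0309). In edgeR the adjusted p of Gpr17 was 0.0484 without 12-week library 9469 (Trem2 +/-) and 0.0461 without 5-week library 2474 (Trem2 +/+). The median over the 10 was 0.35, against -0.04 over all genes.

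Between 12 and 5 weeks on control chow, Enpp6, Bcas1 and Sox10 had an unadjusted p under 0.05 in edgeR, as had 10.6% of all genes. Enpp6 read 29.8 to 137 CPM (median 58.7) at 12 weeks and 19.3 to 45.4 CPM (median 26.5) at 5 weeks, with all 9 libraries at 12 weeks above the 5-week median and 6 above the highest. Its log2 fold change was 1.16 ± 0.38 (edgeR adjusted p 0.185), or 0.82 without 1932. The log2 fold changes of Bcas1 (0.91 ± 0.30, edgeR adjusted p 0.213) and Sox10 (0.73 ± 0.26, adjusted p 0.243) were 0.55 and 0.14 without 1932. Bcas1 had an adjusted p of 0.0379 without 12-week library 8635 (Trem2 -/-), and Sox10 one of 0.0358 without 9145. For Gpr17 the medians were 20.5 CPM at 12 weeks and 26.4 CPM at 5 weeks. No member was called by edgeR, DESeq2 or limma voom, and 0.236% of all genes were called by edgeR. The median over the 10 was 0.25, against -0.04 over all genes. The 12-week and 5-week animals differ in age or in start of diet, which cannot be told apart from the time on the chow.

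**Figure D4:**
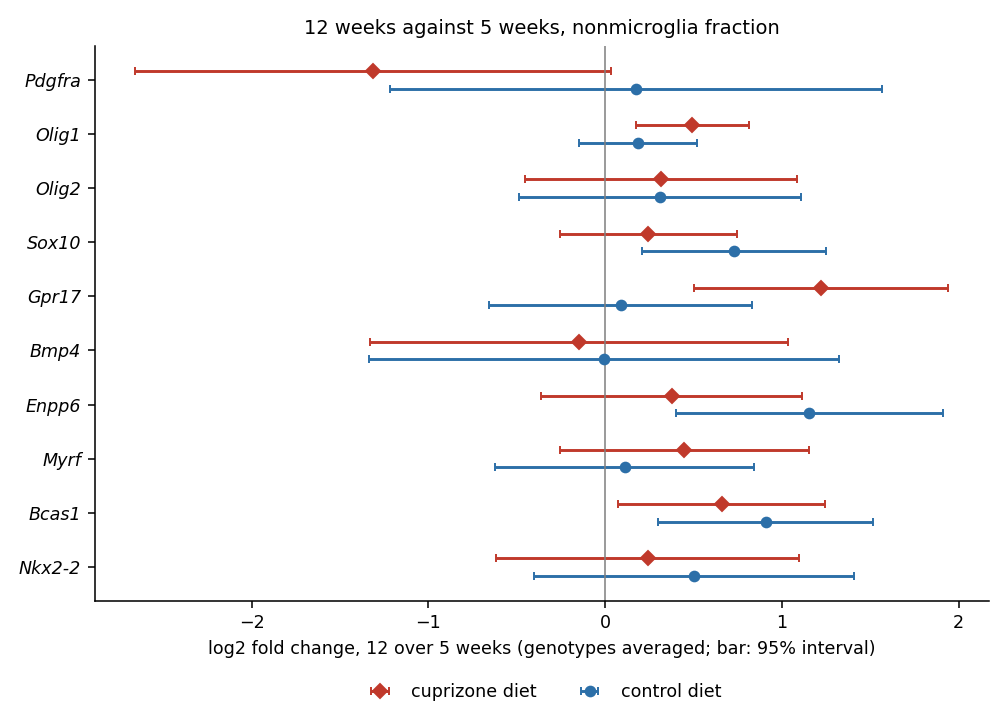
Log2 fold change of 12 over 5 weeks, genotypes averaged, on cuprizone and on control chow; points are edgeR estimates and bars 95% intervals. Gpr17 is at 1.22 on cuprizone and 0.09 on control chow, and Enpp6 at 0.38 and 1.16.

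Within genotypes at 12 weeks the Gpr17 values on cuprizone were 31.8, 47.6 and 22.4 CPM in Trem2 -/-, 137, 102, 97.7 and 34.1 CPM in Trem2 +/-, and 52.6, 72.4 and 64.3 CPM in Trem2 +/+ animals. On control chow they were 13.3, 51.6 and 43.3 CPM in Trem2 -/-, 11.8, 20.5, 16.8 and 33.1 CPM in Trem2 +/-, and 28.3 and 15.4 CPM in Trem2 +/+ animals. Cuprizone and control libraries overlapped in Trem2 -/- and did not in the other genotypes. Of all genes, 8.89% did not overlap in Trem2 -/- (3 against 3 libraries), 3.7% in Trem2 +/- (4 against 4) and 18.6% in Trem2 +/+ animals (3 against 2). The log2 fold change of cuprizone over control was -0.08 in Trem2 -/-, 2.12 ± 0.57 (edgeR adjusted p 0.112) in Trem2 +/- and 1.69 ± 0.75 (adjusted p 0.807) in Trem2 +/+ animals. The difference between the diet effects of Trem2 -/- and +/+ animals was -1.78 ± 0.96 (edgeR unadjusted p 0.0695), so the genotypes were not shown to differ.

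Olig1 at 12 weeks read 887, 642 and 565 CPM on cuprizone and 363, 423 and 372 CPM on control chow in Trem2 -/- animals, with no overlap. In Trem2 +/- animals it read 957, 869, 749 and 919 CPM on cuprizone and 442, 542, 317 and 563 CPM on control chow, again with no overlap. In Trem2 +/+ animals it read 595, 459 and 440 CPM on cuprizone and 760 and 298 CPM on control chow, and the diets overlapped. The log2 fold changes were 0.87 ± 0.29 in Trem2 -/- (edgeR adjusted p 0.83), 0.91 ± 0.25 in Trem2 +/- (adjusted p 0.126) and 0.03 ± 0.32 in Trem2 +/+ animals (adjusted p 1). The Trem2 +/+ value was 0.68 without 1932 and -0.46 without 9145. Olig2 in Trem2 +/- animals also showed no overlap, at 344, 338, 691 and 213 CPM on cuprizone and 142, 156, 39.5 and 195 CPM on control chow (1.60 ± 0.58, edgeR adjusted p 0.48).

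The value of Sox10 at 12 weeks turned on a single library. In Trem2 +/+ animals it read 105, 154 and 70.6 CPM on cuprizone and 538 (male 1932) and 99.8 CPM on control chow. The log2 fold change was -1.54 ± 0.50 (edgeR adjusted p 0.45). It was 0.17 without 1932 and -2.40 without the other control, 9145, each fit leaving a single control library. In Trem2 +/- animals it read 178, 135, 347 and 261 CPM on cuprizone and 101, 118, 68.7 and 152 CPM on control chow (1.07 ± 0.38, adjusted p 0.458). The Trem2 -/- minus +/+ difference in diet effect was 1.67 ± 0.66 (unadjusted p 0.0152, adjusted p 0.881 in edgeR) and -0.04 without 1932.

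Counts by edgeR within genotypes at 12 weeks were 0 of 10 in each. The unadjusted p was under 0.05 for 1 gene in Trem2 -/- (Olig1), 4 in Trem2 +/- (Olig1, Olig2, Sox10 and Gpr17) and 3 in Trem2 +/+ animals (Sox10, Gpr17 and Enpp6), and for 5.25%, 8.9% and 6.05% of all genes in the same order. Of all genes, 0.0355%, 0.142% and 0.0828% were called in these 3 genotypes in the same order. In Trem2 +/- animals, DESeq2 and limma voom each called Olig1 (adjusted p 0.0388 and 0.0316) and Gpr17 (0.00471 and 0.0259); in the other genotypes they called none.

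At 5 weeks the clearest member within a genotype was Bcas1 in Trem2 -/- animals, at 306, 239 and 209 CPM on cuprizone and 63.3, 123 and 104 CPM on control chow. The diets did not overlap, and the log2 fold change was 1.38 ± 0.51 (edgeR unadjusted p 0.0118, adjusted p 1). In Trem2 +/- animals Bcas1 read 99.7, 85.9 and 178 CPM on cuprizone and 130.0, 87.2 and 97.2 CPM on control chow, with overlap. In Trem2 +/+ animals it read 258, 145 and 245 CPM on cuprizone and 34.3, 147 and 146 CPM on control chow. Sox10 was the member without overlap in Trem2 +/+ animals, at 170.0, 124 and 160.0 CPM on cuprizone and 54.5, 104 and 108 CPM on control chow. No member was called by edgeR, DESeq2 or limma voom in any genotype at 5 weeks. Of all genes, 0.0296%, 0.0591% and 0.0414% were called in Trem2 -/-, +/- and +/+ animals by edgeR. Unadjusted p-values under 0.05 numbered 2 in Trem2 -/- animals (Olig1 and Bcas1) and 0 in the others, against 2.89%, 4.83% and 5.87% of all genes. The diets did not overlap for 8.73%, 9.94% and 9.39% of all genes, and for 1, 0 and 1 of the 10 members, in the same order.

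**Figure D5:**
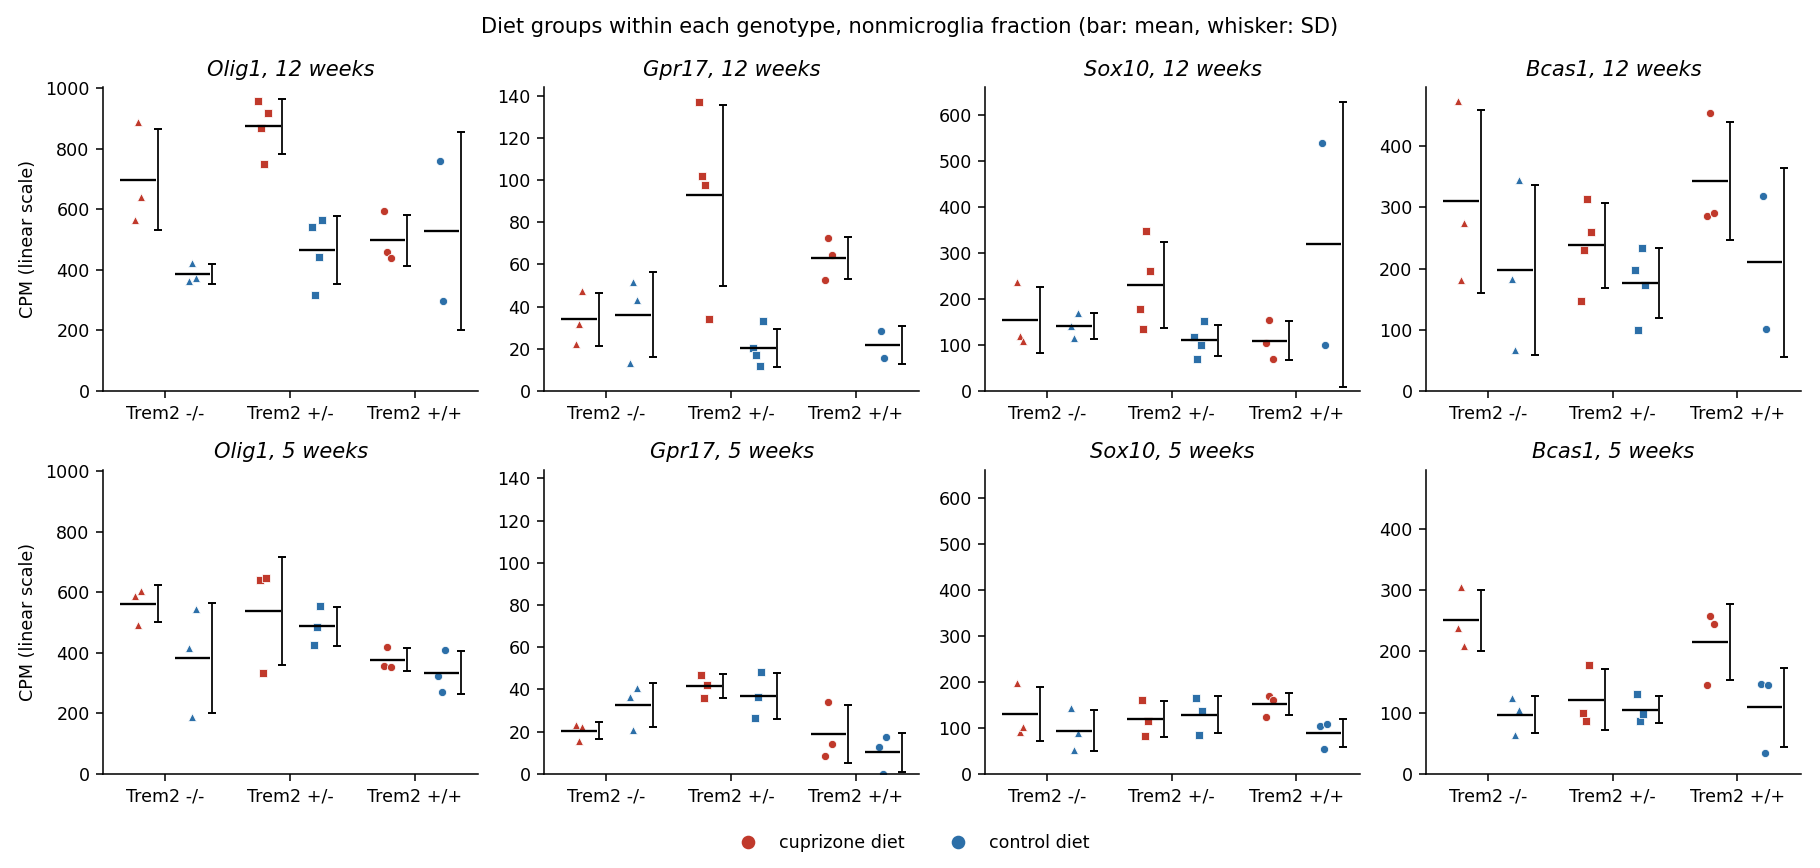
CPM of Olig1, Gpr17, Sox10 and Bcas1 in nonmicroglia libraries by genotype and diet, at 12 weeks (top) and 5 weeks (bottom); points are libraries, bars means and whiskers SDs. At 12 weeks the diets overlap for Gpr17 in Trem2 -/- animals and are apart in the other genotypes, and the control at 538 CPM of Sox10 is male 1932.

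Genotypes were compared in the nonmicroglia fraction only, where none of the 16915 genes tested passed the edgeR test. Thus 0% were called in each of 9 comparisons of genotype and in both tests of the diet effect between Trem2 -/- and +/+ animals. Members with an unadjusted p under 0.05 are therefore given as values only. On cuprizone at 5 weeks Olig1 read 491, 588 and 604 CPM in Trem2 -/- and 420, 357 and 354 CPM in Trem2 +/+ animals, without overlap. With both weeks averaged, Olig1 on cuprizone differed by 0.53 ± 0.20 (Trem2 -/- over +/+, edgeR unadjusted p 0.0101, adjusted p 1). On cuprizone at 12 weeks Olig1 was higher in Trem2 +/- than in +/+ animals by 0.82 ± 0.27 (unadjusted p 0.00348, adjusted p 0.787 in edgeR), and Gpr17 differed by -1.50 ± 0.61 between Trem2 -/- and +/- animals (adjusted p 0.92). Gpr17 on cuprizone at 12 weeks was lower in each Trem2 -/- than in each Trem2 +/+ library. Between these genotypes on cuprizone 8.03% of all genes did not overlap at 5 weeks and 8.45% at 12 weeks, against 1 of the 10 members at each. On control chow Gpr17 at 5 weeks differed by 1.72 ± 0.66 (Trem2 -/- over +/+, edgeR adjusted p 0.923), and Sox10 at 12 weeks by -1.17 ± 0.50 (adjusted p 0.988), a value of 0.54 without 1932. The numbers with an unadjusted p under 0.05 were 0 to 2 of 10 per comparison, against 2.45% to 6.15% of all genes, and DESeq2 and limma voom called none.

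Other lists of the lineage held genes that passed. Of 16 further precursor markers, 1 passed at 5 weeks: Cspg5, a chondroitin sulfate proteoglycan, fell to 252 to 446 CPM (median 304) on cuprizone, against 420 to 736 CPM (median 527) on control chow, a log2 fold change of -0.75 (edgeR adjusted p 0.0298). That call was lost in 10 of 18 fits that left out 1 library, without the libraries beyond 30 on the first component (adjusted p 0.583) and with the noncoding share of counts as a covariate (0.235). The median of the list was -0.21, with 3 positive. At 12 weeks Cspg5 was again the 1 called, at -0.88 (adjusted p 0.0033), and the list's median was 0.09. Without control library 9145 Cspg5 at 12 weeks was -0.52 with an adjusted p of 0.251, and without the libraries beyond 30 its adjusted p was 0.355. None of the 10 tested committed and newly formed oligodendrocyte genes passed at either time, with medians of 0.03 at 5 weeks and 0.20 at 12 weeks. By edgeR 1 of them had an unadjusted p under 0.05 at 5 weeks (Fyn, 0.41) and 2 at 12 weeks. The shares of all genes were 7.58% at 5 weeks and 8.41% at 12 weeks. This list was not particular to the nonmicroglia fraction. Between the fractions of Trem2 +/+ controls 7 of its genes were tested, with a median log2 fold change of -0.52, nonmicroglia over microglia. Of these, 2 were called higher in nonmicroglia cells (Fyn, 3.47, and Lims2, 7.09) and 2 higher in microglia (Frmd4a, -2.59, and Itpr2, -1.68).

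Of 18 mature oligodendrocyte genes, 3 passed at 5 weeks. Ppp1r14a fell by 1.48 (edgeR adjusted p 0.00386) and Mal, a myelin membrane protein, fell by 0.95 (adjusted p 0.000557), while Trf, the iron carrier transferrin, rose by 0.80 (adjusted p 0.000611), all on the log2 scale. Without the libraries beyond 30 the adjusted p of Trf was 0.334, and Ppp1r14a and Mal stayed called. The median of the 18 was -0.35. Between 12 and 5 weeks on cuprizone, 7 of the 18 rose and 0 fell, among them Ppp1r14a (1.34), Mog (1.07), Ugt8a (1.06) and Mal (1.04), with a median of 0.69. Without the libraries beyond 30 on the first component these 4 were not called. Those libraries lay apart by week, all from 12 weeks on the positive and all from 5 weeks on the negative side. That setting therefore cannot tell whether these rises hold. RNA integrity numbers were labelled for 2 cuprizone libraries at 12 weeks (median 8.85) and 9 at 5 weeks (median 8.0). For control chow they were labelled for 3 libraries at 12 weeks (median 8.7) and 9 at 5 weeks (median 8.0). Their part in the differences between weeks was not tested. The noncoding share of counts, a further sign of RNA quality, had a median of 11.2% at 12 weeks and 13.6% at 5 weeks on cuprizone. With that share as a covariate Mal stayed called, and Mog (adjusted p 0.506), Ppp1r14a (0.402) and Ugt8a (0.260) did not. Between 12 and 5 weeks on control chow Mbp (0.98) and Trf (0.71) rose, with a list median of 0.71. Trf was not called without the libraries beyond 30 (adjusted p 0.333) or without 1932 (0.239), nor Mbp without 1932 (0.0570). The summed level of the list was 16407 to 34546 CPM (median 26005) on cuprizone and 21001 to 57355 CPM (median 26741) on control chow at 12 weeks. At 5 weeks it was 8288 to 21642 CPM (median 16860) on cuprizone and 8162 to 37174 CPM (median 19029) on control chow.

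Few genes of the pathways around the members passed. In the BMP pathway, to which Bmp4 belongs, 0 of 21 tested genes passed at either time, with medians of -0.24 at 5 weeks and -0.17 at 12 weeks; the edgeR unadjusted p was under 0.05 for 5 and 2 of them. In PDGF, FGF, IGF and neuregulin signalling, which holds the ligands of Pdgfra, 0 of 21 passed at either time, with medians of -0.32 and -0.18 and unadjusted p under 0.05 for 3 and 1. In the Wnt and Notch pathway 0 of 19 passed, with medians of -0.12 and 0.10 and unadjusted p under 0.05 for 1 and 5. Of 21 other lineage transcription factors, none passed at 5 weeks and Sox9, which is also on in astrocytes, fell by 0.64 at 12 weeks (edgeR adjusted p 0.0351), a call lost in 9 of 19 fits that left out 1 library and without the libraries beyond 30 (adjusted p 0.489). Of 16 tested proliferation genes none passed at either time, with 3 and 1 at an unadjusted p under 0.05. Each pair of values in these sentences gives 5 weeks, then 12 weeks. An unadjusted p under 0.05 in edgeR was reached by 7.58% of all genes at 5 weeks and 8.41% at 12 weeks.

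Of 10 astrocyte markers, 0 were called at 5 weeks and 1 at 12 weeks. Their summed level, which was not tested, was 4145 to 6042 CPM (median 4852) on cuprizone and 6349 to 8966 CPM (median 6690) on control chow at 5 weeks, without overlap. At 12 weeks it was 2918 to 5710 CPM (median 3519) on cuprizone and 4014 to 8598 CPM (median 5010) on control chow. The median log2 fold changes of the list were -0.49 and -0.48 at 5 and 12 weeks, with 1 and 0 of 10 positive and Slc1a2, a glutamate transporter, called at 12 weeks (-0.72, edgeR adjusted p 0.00412, or 0.153 without the libraries beyond 30). None of the 10 astrocyte markers was at 0 in a library of the 12-week controls. Microglia markers summed to 349 to 934 CPM over the cuprizone and 391 to 741 CPM over the control nonmicroglia libraries at 12 weeks, and at 5 weeks to 359 to 634 CPM over the cuprizone and 376 to 699 CPM over the control libraries. The part of these lists in the values of the members and of Cspg5 was not tested.

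In the microglia fraction the members were near the floor of detection. Olig1 ranged from 1.55 to 22.2 CPM and Bcas1 from 1.11 to 52.7 CPM over its 37 libraries. Of the 10 genes, Pdgfra, Olig1, Olig2, Sox10, Myrf and Bcas1 passed the filter on low counts. Cuprizone against control called 0 of these 6 at 5 weeks, where 1.6% of all genes were called, and 0 at 12 weeks, where 2.95% were. None had an unadjusted p under 0.05 in edgeR, and DESeq2 and limma voom called none. Other genes of the lists did pass there. Of 17 proliferation genes, 6 rose at 5 weeks and 1 at 12 weeks. Those with the largest change at 5 weeks were the cell cycle genes Ccna2 (6.05, edgeR adjusted p 0.00218), Ube2c (4.91, adjusted p 0.0107), Mki67 (4.32, adjusted p 0.00744) and Birc5 (2.85, adjusted p 0.00855), and at 12 weeks it was Cdk1 (2.48, adjusted p 0.000691). Igf1, a growth factor that promotes oligodendrocyte survival, rose by 1.43 at 5 weeks (edgeR adjusted p 0.0166) and by 3.35 at 12 weeks (adjusted p 2.16e-07). Cspg4, a proteoglycan of precursors and pericytes, rose by 4.37 ± 1.04 at 12 weeks (edgeR adjusted p 0.00729), and Fyn, a kinase of differentiating oligodendrocytes and of other cells, by 1.47 (adjusted p 0.0367). Cspg4 was not called without the library of 9542, 1932 or 9145 (lowest value 2.49, adjusted p 1), and Fyn lost its call in 8 of 19 fits without 1 library. Without the libraries beyond 30 on the microglia fraction's own first component, neither was called (adjusted p 0.0502 for Cspg4 and 0.360 for Fyn). Igf1 at 5 weeks was at an adjusted p of 0.0511 without the library of 310. In the same fraction at 12 weeks the summed level of 8 endothelial markers was 88.0 to 497 CPM (median 234) on cuprizone and 57.0 to 177 CPM (median 83.0) on control chow. Of these 8, Flt1, a receptor for vascular endothelial growth factor, rose by 2.17 (edgeR adjusted p 5.21e-07). The median of the endothelial list was -0.14, with 3 of 8 positive. Mural markers (8 genes of pericytes and smooth muscle) summed to 12.3 to 73.5 CPM (median 20.8) on cuprizone. On control chow they summed to 9.88 to 63.4 CPM (median 24.0). The median log2 fold change of the 6 mural markers tested was -0.44, with 2 positive. The part of these markers in the values of Cspg4 was not tested.

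The members varied together to differing degrees over the 37 nonmicroglia libraries. As a description, with depth, diet, weeks and genotype shared by the points, Pearson's r of log2 CPM was 0.70 for Olig2 with Sox10, 0.67 for Bmp4 with Myrf, 0.62 for Olig1 with Olig2 and 0.62 for Olig2 with Bcas1. At the other end were Bmp4 with Enpp6 (-0.16) and Sox10 with Nkx2-2 (-0.14). After the group means and sex were taken out, Olig2 with Sox10 stood at 0.77 and Bmp4 with Myrf at 0.81. Against the summed astrocyte markers, Bcas1 had an r of -0.68 and Olig2 of -0.51, and against the summed mature oligodendrocyte markers Myrf had 0.55 and Enpp6 0.50. Among 10306 genes, those most like Sox10 were Ppp2r2a (0.75), Cnp (0.75), a myelin enzyme, and Nfasc (0.73). Those most like Olig1 were Lgi3 (0.81), Dusp26 (0.79) and Tyro3 (0.79), and those most like Olig2 were Rps26 (0.81), Rplp1 (0.79) and Nfasc (0.75). For Bcas1 they were Ppfibp2 (0.71), Ywhaq (0.70) and Mbp (0.70), for Myrf Cpped1 (0.78), Rnf130 (0.78) and Srebf1 (0.75), and for Gpr17 Ppp2ca (0.72), Lrrc8d (0.68) and Ankrd28 (0.67). For Pdgfra they were Plekha6 (0.70), Neu4 (0.64) and Ccdc86 (0.62), for Enpp6 Map1lc3b (0.67), Pmp22 (0.60) and Shisa4 (0.59), for Bmp4 Nudt9 (0.71), Borcs7 (0.70) and Zwint (0.70), and for Nkx2-2 Srp9 (0.74), Aaed1 (0.73) and Erh (0.70).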

How the data were processed

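RNA of both sorted fractions of 37 mice was made into low-input 3' tag libraries, per the labels. The deposited table holds whole-number counts of tags per gene for 49912 genes and 74 libraries, with no normalization by the authors. Per the submitters' processing notes, FastQC 0.11.5, STAR, MultiQC, R 3.4.3 and GRCm38.p6 were used; neither the counter nor its annotation or strand setting, nor whether tags carried molecular identifiers, is given in the sources used here.

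Samples were grouped by the labels' fraction, diet, weeks and genotype. Each fraction was fitted apart with edgeR 4.0.16 in R 4.3.3: filterByExpr with a minimum count of 10, TMM, a robust quasi-likelihood model of 12 group means and sex, and two-sided tests with Benjamini-Hochberg adjustment over all genes of a comparison (16915 nonmicroglia, 14087 microglia, 12391 between fractions), called at an adjusted p under 0.05. The comparison between fractions was a separate fit of both fractions of the 5 Trem2 +/+ animals on control chow, with weeks and sex. It had no term for the animal, so its p-values leave the pairing out. There were 25 comparisons. CPM are counts scaled to a common TMM library size. The p-values rest on the spread between libraries that the model leaves, estimated per gene over all libraries of the fit. They do not measure the spread within the compared groups alone. The closest pair among 2701 pairs of libraries differed by a chi-square of 8.56 per degree of freedom, so none was a copy.

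Both fractions of an animal carry its number, so the fractions are paired by animal. Their deviations from the group means correlated at -0.003, -0.010, 0.021, 0.043 and -0.010 for animals 1930, 1932, 309, 5512 and 9145. Animals 1932 and 9145 alone made up their group, so their deviations mirror each other and their values are equal by construction. The values are therefore not separate checks of the pairing.

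The members and the 18 gene lists (220 genes, 1 of them not in the table) were chosen with earlier results of these data known. From each list the text names at most 4 genes, those called with the biggest fold change, or the 1 of smallest p where none was called. Likeness was Pearson's r of log2 CPM with a prior count of 2 over genes with an average of at least 3. Promoters are from RefSeq and were found for 5 of the 10 genes. Alternatives were DESeq2 1.42.0, its size factors, limma 3.58.1 voom with quality weights, a fit lacking the sex term, all genes with any count kept, the noncoding share of counts as a covariate, no library beyond 30 on the first principal component (genes averaging over 5 counts), library sizes without mature oligodendrocyte genes, an animal block between fractions and leaving out each library. One result of the mature oligodendrocyte list is not reported here. The code was tested on simulated counts. Figures were drawn with matplotlib 3.10.9 in Python 3.11.15.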

Additional observations from a re-analysis of the deposited data

Results flagged for a closer look

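Over 60 groups of 4 to 10 nonmicroglia libraries (20 within Trem2 +/- animals and 40 over all genotypes of a diet and week), 3 held a library whose gap to the nearest other exceeded Dixon's 95% critical value for the group's range; chance gives about 1 in 20. The control library of Trem2 +/+ male 1932 at 12 weeks was far above the other 8 controls for Sox10 (538 CPM, next 170 CPM) and for Olig2 (652 CPM, next 268 CPM). The cuprizone library of Trem2 +/+ animal 8043 at 12 weeks was far below the other 9 for Enpp6 (2.09 CPM, next 28.9 CPM). Both libraries are included in the values reported.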

How the results depend on the processing

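Over 457 counts of called members (comparisons times settings), 437 were as reported and 20 moved, 7 of them when 1 library was left out. With no filter on low counts, edgeR called 2 members at 5 weeks of cuprizone (Olig2 and Bcas1), 1 at 12 weeks (Olig2), 1 between 12 and 5 weeks on control chow (Bcas1) and 1 at 12 weeks in Trem2 +/- animals (Olig2). DESeq2 called 2 members at 12 weeks of cuprizone, 1 between 12 and 5 weeks on cuprizone and 2 at 12 weeks in Trem2 +/- animals, where limma voom called 2; limma voom also called 2 between 12 and 5 weeks on cuprizone. Without the 13 libraries beyond 30 on the first component, 3 members were called at 12 weeks in Trem2 +/- animals (Sox10, Olig2 and Gpr17). That setting left 1932 as the only Trem2 +/+ control and 8043 as the only Trem2 +/+ cuprizone library at 12 weeks. It also left 9542 as the only Trem2 -/- cuprizone library at that time. Calls of Enpp6 and Sox10 in comparisons that draw on these groups rest on single libraries, so no count of them is given. Leaving out 1 library gave 0 to 1 called members at 12 weeks of cuprizone, between 12 and 5 weeks on either chow and at 12 weeks in Trem2 +/+ animals. For Sox10 at 12 weeks these fits ran from -2.40 to 0.17 for cuprizone over control chow in Trem2 +/+ animals, from -2.02 to 0.54 for Trem2 -/- over +/+ on control chow, and from -0.041 to 2.52 for the difference in diet effect between Trem2 -/- and +/+ animals. The causes were not tested.

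With the animal as a block, so that both fractions of a mouse were paired, 8 members were called as without it, with Gpr17 at 3.0 and Bmp4 at 3.48, and it changed no call among the members; over all genes 4282 were called with it and 4406 without. DESeq2 and limma voom called 10, and leaving out 1 library gave 7 to 9. The counts over all genes moved more. At 5 weeks of cuprizone 75 genes were called, against 149 with DESeq2 and 39 without the libraries beyond 30. At 12 weeks there were 84, against 189 with DESeq2. Between 12 and 5 weeks on cuprizone there were 163, against 461 with limma voom (80 to 249 without 1 library). Fewer were called without the libraries beyond 30, which lay apart by week. On control chow there were 40, against 221 with DESeq2 and 11 with the noncoding share as a covariate (12 to 102 without 1 library). At 12 weeks 14 genes were called in Trem2 +/+ animals, against 87 with DESeq2 and 1 with limma voom (1 to 130 without 1 library), 24 in Trem2 +/-, against 122, and 6 in Trem2 -/- animals, against 30, with DESeq2. Between the weeks 1 gene differed in diet effect, against 0 with limma voom and 7 without the libraries beyond 30. At 5 weeks 7 genes were called in Trem2 +/+ animals, against 46, 10 in Trem2 +/-, against 27, and 5 in Trem2 -/- animals, against 18, all with DESeq2. In the microglia fraction 415 genes were called at 12 weeks, against 754 with DESeq2 and 215 without the libraries beyond 30, and 226 at 5 weeks, against 409 with DESeq2. Where a comparison of genotypes called 0 genes, alternatives called up to 79. Depth limits the members with libraries at 0 (Pdgfra, Gpr17 and Bmp4), since 1 count was worth 0.291 to 0.797 CPM.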
